A study of Mus musculus with 9 samples.

Results

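The atypical cadherins of the Fat, Dachsous and Celsr families and their partners were followed in the embryonic mouse telencephalon. The set held 9 genes taken by symbol: Fat1, Fat3, Fat4, Dchs1, Fjx1, Celsr1, Celsr2, Celsr3 and Vangl2. All 9 were among the 34590 genes counted, and all 9 passed the filter on low counts. Total RNA was sequenced from telencephalons at E12.5, a stage of early neuron production, from 4 embryos in which Lats1 and Lats2 were both removed with Nestin-Cre (dKO) and from 5 wild-type embryos (WT), both on a mixed strain background. Nestin-Cre acts in neural progenitors and their descendants, so vessels, meninges and blood in the same tissue keep both genes. The floxed alleles, whether the WT embryos carried Cre, and the litters were not stated in the material at hand. Equal numbers of counted cells received a fixed amount of ERCC spike-in RNA before extraction, and 350 ng of total RNA entered each library.

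Fat and Dachsous proteins are very large cadherins that bind each other across neighbouring cells. Fjx1 is the mouse homolog of a fly Golgi kinase that phosphorylates the cadherin repeats of Fat and Dachsous and thereby tunes their binding. In the fly, Fat restrains the coactivator Yorkie through Warts, the homolog of the Lats kinases. In the mouse cortex, loss of Fat4 or Dchs1 is known to enlarge the progenitor pool. Celsr proteins are multi-pass adhesion receptors with cadherin repeats, and together with Vangl2 they belong to the core of planar cell polarity, the system that orients cells within an epithelial sheet. In mammals, Lats kinases hold back YAP and TAZ, which drive transcription through TEAD factors.

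A window from 250 bases before to 50 bases after the annotated start was at hand for 6 of the 9 genes (RefSeq, GRCm38.p6): Fat1, Fat3, Fat4, Celsr2, Celsr3 and Vangl2. Windows of Fat1, the gene that was higher in dKO on both scales below, and of Fat4 and Celsr3, which were lower relative to other genes, are shown to compare them for the TEAD motif, in lower case with the motif in capitals. The Fat1 window lies at chr8:44949958-44950257 (plus strand), the Fat4 window at chr3:38886690-38886989 (plus strand) and the Celsr3 window at chr9:108825795-108826094 (plus strand).
Fat1: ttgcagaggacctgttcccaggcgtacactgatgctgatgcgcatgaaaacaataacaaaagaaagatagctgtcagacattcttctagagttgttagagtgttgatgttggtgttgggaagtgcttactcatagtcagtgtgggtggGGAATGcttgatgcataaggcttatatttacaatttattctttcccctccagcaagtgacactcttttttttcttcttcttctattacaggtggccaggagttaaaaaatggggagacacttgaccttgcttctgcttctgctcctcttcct
Fat4: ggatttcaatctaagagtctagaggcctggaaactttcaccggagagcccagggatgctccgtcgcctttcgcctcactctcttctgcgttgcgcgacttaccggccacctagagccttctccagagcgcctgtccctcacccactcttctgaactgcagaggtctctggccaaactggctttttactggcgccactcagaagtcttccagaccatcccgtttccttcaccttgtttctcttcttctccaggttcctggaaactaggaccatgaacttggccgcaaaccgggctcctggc
Celsr3: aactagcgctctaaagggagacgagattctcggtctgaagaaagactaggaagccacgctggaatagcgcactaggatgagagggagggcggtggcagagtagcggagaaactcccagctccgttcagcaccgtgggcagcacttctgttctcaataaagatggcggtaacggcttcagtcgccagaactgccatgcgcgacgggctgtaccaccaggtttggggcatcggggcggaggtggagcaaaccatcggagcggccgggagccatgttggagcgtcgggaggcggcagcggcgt
The TEAD motif GGAATG, sought on both strands, occurred in the Fat1 window at 102 bases before the start and in none of the other 5 windows. It is in 14.7% of the 32851 windows of the same length, so 1 of 6 is close to the share over all genes. The motif TGANTCA of AP-1, a frequent partner of TEAD, occurred in none of the 6 windows and in 7.81% of all; the motifs share no position. The start used for Fat1 lies 14761 bases inside the gene as GENCODE vM21 annotates it, at the start of a GENCODE transcript. Its window is thus an internal one there, with a GC content of 42.7% and 2 CpG pairs. The starts used for Celsr3, Fat3 and Celsr2 lie 275, 769 and 27 bases before the GENCODE gene. That of Vangl2 lies 1149 bases inside it. The Fat4 and Celsr3 windows had a GC content of 55.7% and 60.7%, with 13 and 25 CpG pairs, against medians of 52.7% and 7 over all windows.

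Gene counts per library ranged from 16566763 to 45803152 in dKO and from 12906561 to 39263370 in WT. For each count of a spike-in there were 79.1 ± 5.90 gene counts in dKO and 58.1 ± 6.10 in WT (SD, n = 4 and 5), a log2 difference of 0.45 (SE 0.09; two-sided exact permutation p = 0.00794, the lowest value that 126 assignments can give). The spike-in scale below takes the counted cells and the added spike-in volume as the same in every tube. Lats1 averaged 59.8 ± 1.07 CPM (counts scaled to a common library size) in dKO and 132 ± 4.55 CPM in WT (SD, n = 4 and 5). Lats2 was not reduced but higher, at 43.4 ± 9.46 CPM in dKO and 27.0 ± 6.18 CPM in WT. Its log2 fold change was 0.69 relative to other genes and 1.12 per spike-in count (edgeR adjusted p = 0.0144 and 1.19e-06). Without WT 2, 3 and 4 the relative value was 0.42 and did not pass (edgeR adjusted p = 0.209). Which exons were removed was not stated, so the gene-level count of Lats2 does not check the label. Reads in no gene made up 32.0% to 35.6% of the dKO libraries, against 39.3% to 41.3% of WT 2, 3 and 4 and 32.5% to 34.4% of WT 1 and WT 5. Results are therefore also given for the 4 dKO libraries against WT 1 and WT 5. Some marker genes split the WT libraries in the same way. Hbb-bh1 had 270 and 149 CPM in WT 1 and WT 5, against 49.0, 29.9 and 34.8 CPM in WT 2, 3 and 4. Hmga2 had 81.2 and 70.8 CPM, against 44.1, 36.8 and 39.8 CPM. Neurod6 went the other way, with 85.9 and 124 CPM, against 208, 265 and 243 CPM. What sets WT 2, 3 and 4 apart, be it stage, dissection or library quality, was not tested.

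Relative to the rest of the transcriptome, Fat1 stood higher in dKO telencephalons, and the Fat4 and Dchs1 pair and a pair of Celsr genes stood lower. Only the rise of Fat1 also passed against WT 1 and WT 5 alone. Per spike-in count none of the 9 genes fell, where 0.698% of all genes did. Both a relative and a spike-in scale were used. On the relative scale, counts were scaled by TMM, which sets the typical gene to no change, and on the spike-in scale counts were divided by the spike-in total. On the relative scale Fat1 rose in dKO, and Fat4, Dchs1, Celsr2 and Celsr3 fell; the other 4 did not pass the test (edgeR, Benjamini-Hochberg adjusted p under 0.05). Over all 17182 genes tested, 13.7% rose and 12.0% fell on this scale. Per spike-in count, Fat1, Fat3, Fjx1 and Vangl2 rose, 4 of 9 where 61.1% of all genes rose. On that scale 0 of the 9 fell (edgeR; 0 also at an unadjusted p under 0.05, and 0 by DESeq2 and limma-voom), and 0.698% of all genes did. Groups lay fully apart, with dKO below WT, for 3 of the 9 on the relative scale, where 9.74% of all genes were so placed. On the spike-in scale this held for 0 of the 9 and for 0.134% of all genes. The median log2 fold change over the 9 genes was -0.38 relative and 0.06 per spike-in count, against -0.01 and 0.43 over all genes. Without WT 2, 3 and 4 the relative median of the 9 was -0.11, Fat1 still rose, where 2.51% of all genes did, and 0 fell, where 0.949% did (edgeR; 2 at an unadjusted p under 0.05, Dchs1 and Celsr3). Per spike-in count, without those 3 libraries, Fat1, Fat3, Celsr1 and Vangl2 rose and 0 of the 9 fell (edgeR; 0 at an unadjusted p under 0.05), beside 49.1% and 0.250% of all genes.

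**Figure D1:**
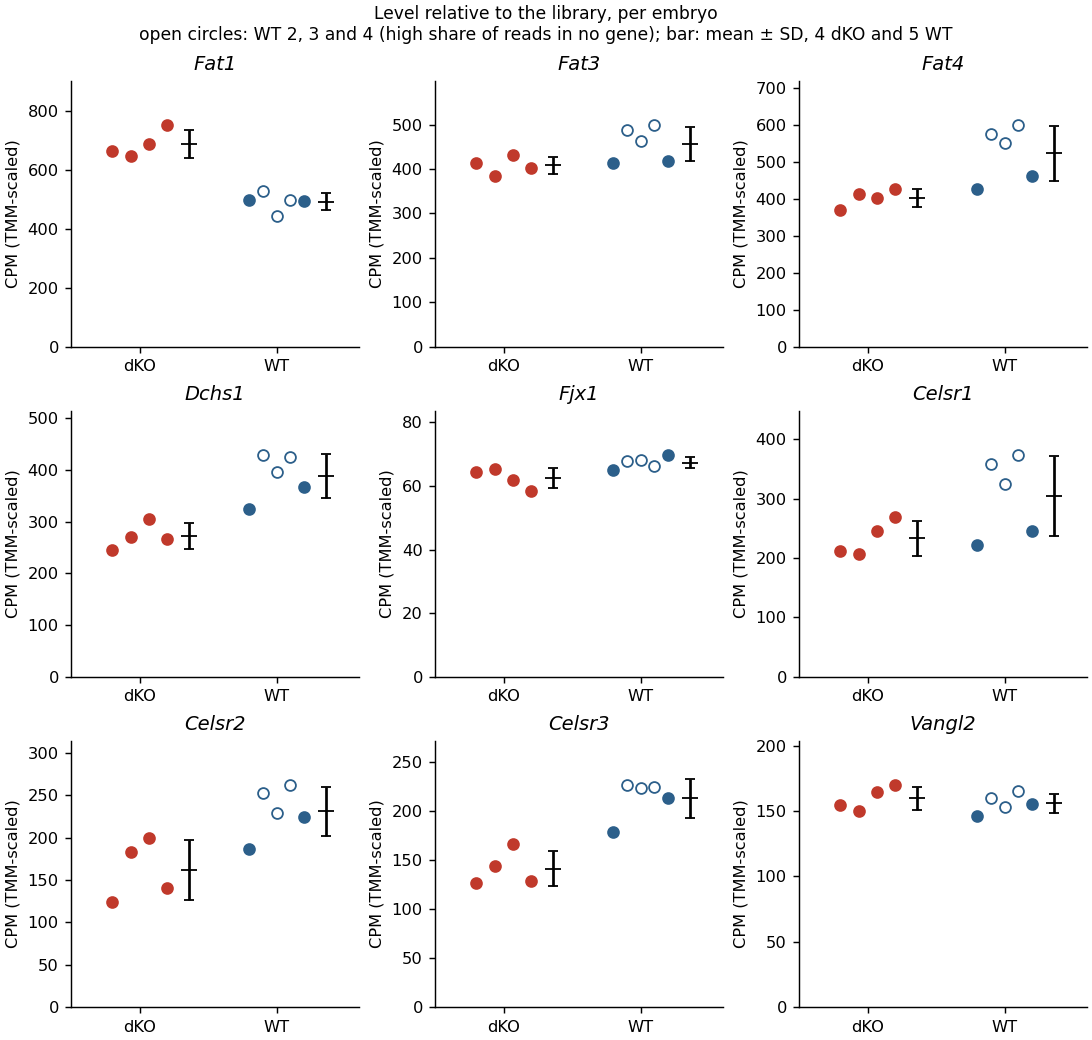
TMM-scaled CPM (y axis) of the 9 genes in each library, with dKO on the left and WT on the right of each panel; open circles mark WT 2, 3 and 4, and bars give mean ± SD (n = 4 and 5). The 4 dKO libraries sit at 647 to 753 CPM for Fat1, all above WT, while for Dchs1 and Celsr3 all dKO libraries lie below all WT libraries.

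Fat1, a cadherin whose cytoplasmic part binds actin regulators of the Ena/VASP family and whose loss in mice disturbs forebrain and eye formation, was higher in every dKO library than in any WT library. It had 664, 647, 690.0 and 753 CPM in dKO 1 to 4, against 499.7, 529, 445, 498 and 494 CPM in WT 1 to 5. The relative log2 fold change was 0.48 (SE 0.06, adjusted p = 0.000309), a 1.40-fold difference. Groups that do not overlap with dKO on top were found at 12.6% of all genes on this scale. On the spike-in scale Fat1 had 46.5, 54.5, 54.3 and 62.0 counts per 1000 spike-in counts in dKO, against 27.1, 26.3, 28.4, 30.4 and 30.9 counts in WT. The lowest dKO library was thus clear of the highest WT library by about the width of the whole dKO range. The log2 fold change per spike-in count was 0.93 (SE 0.11, adjusted p = 4.33e-08), or 1.90-fold. With WT 1 and WT 5 as the only WT libraries it was 0.47 relative (SE 0.07, adjusted p = 0.0153) and 0.91 per spike-in count (SE 0.15).

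Fat3, a relative of Fat1 known for shaping dendrites of retinal neurons, had 415, 385, 432 and 402 CPM in dKO, against 415, 489, 463, 499 and 418 CPM in WT. The groups overlapped, since WT 1 and WT 5 lay inside the dKO range, and the relative log2 value of -0.16 (SE 0.06, adjusted p = 0.0804) did not pass. Per 1000 spike-in counts it had 29.0, 32.4, 33.9 and 33.1 counts in dKO, against 22.5, 24.3, 29.5, 30.4 and 26.1 counts in WT. This rise had a log2 fold change of 0.27 (SE 0.11, adjusted p = 0.0317), below the median of all genes. It did not pass without WT 1, WT 2, dKO 2, dKO 3 or dKO 4, where it was 0.22 to 0.27, while the relative value passed as a fall without WT 1 (-0.19) or WT 5 (-0.19) and with DESeq2 (adjusted p = 0.0468). With WT 2, 3 and 4 left out, Fat3 was at -0.03 relative (adjusted p = 0.841) and rose by 0.40 per spike-in count (adjusted p = 0.0172).

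Fat4, the receptor for Dchs1 and the closest mouse relative of fly Fat, had 368, 414, 401 and 425 CPM in dKO, against 426, 576, 551, 599 and 460.4 CPM in WT. The groups did not overlap, but the highest dKO library (425.3 CPM) and WT 1 (426.2 CPM) all but touched. The relative log2 fold change was -0.38 (SE 0.10, adjusted p = 0.0138). Scaled to 1000 spike-in counts, Fat4 had 25.8, 34.9, 31.5 and 35.1 counts in dKO, against 23.1, 28.6, 35.1, 36.5 and 28.7 counts in WT, and the groups overlapped almost fully. The log2 fold change of 0.06 on that scale (95% interval -0.19 to 0.32, adjusted p = 0.667) did not pass. The relative fall leaned on WT 2, 3 and 4: without them it was -0.14 (SE 0.07, adjusted p = 0.308). In bulk tissue, fewer cells that express a gene and less of its RNA per cell cannot be told apart, here or for the genes that follow.

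Dchs1, the large cadherin that serves as ligand of Fat4, had 245, 271, 306 and 267 CPM in dKO, against 325, 428, 395, 425 and 368 CPM in WT. Every dKO library was below every WT library, with WT 1 the nearest. The relative log2 fold change was -0.51 (SE 0.09, adjusted p = 0.00157), a level of 0.701 times WT. Groups that do not overlap with dKO below WT were found at 9.74% of all genes. For each 1000 spike-in counts, Dchs1 had 17.2, 22.8, 24.0 and 21.98 counts in dKO, against 17.6, 21.3, 25.2, 25.9 and 22.9 counts in WT. On that scale the log2 fold change of -0.07 (95% interval -0.31 to 0.17, adjusted p = 0.608) did not pass, and the interval lies below the 0.43 of the median gene. Against WT 1 and WT 5 alone, the relative value was -0.35 (SE 0.09, adjusted p = 0.0698).

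Fjx1, the kinase gene, is also counted among common YAP/TAZ targets in other tissues. It had 64.3, 65.5, 61.8 and 58.5 CPM in dKO, against 65.1, 67.8, 68.1, 66.3 and 69.7 CPM in WT. The groups overlapped through WT 1 and dKO 2, and the relative log2 value of -0.11 (SE 0.04, adjusted p = 0.0871) did not pass. Per 1000 spike-in counts it had 4.50, 5.52, 4.86 and 4.82 counts in dKO, against 3.52, 3.37, 4.34, 4.05 and 4.35 counts in WT, without overlap, as at 48.4% of all genes. This rise had a log2 fold change of 0.33 (SE 0.11, adjusted p = 0.0128). It did not pass without dKO 2 (0.27, adjusted p = 0.0809) or without WT 2, 3 and 4 (0.32, adjusted p = 0.0663).

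**Figure D2:**
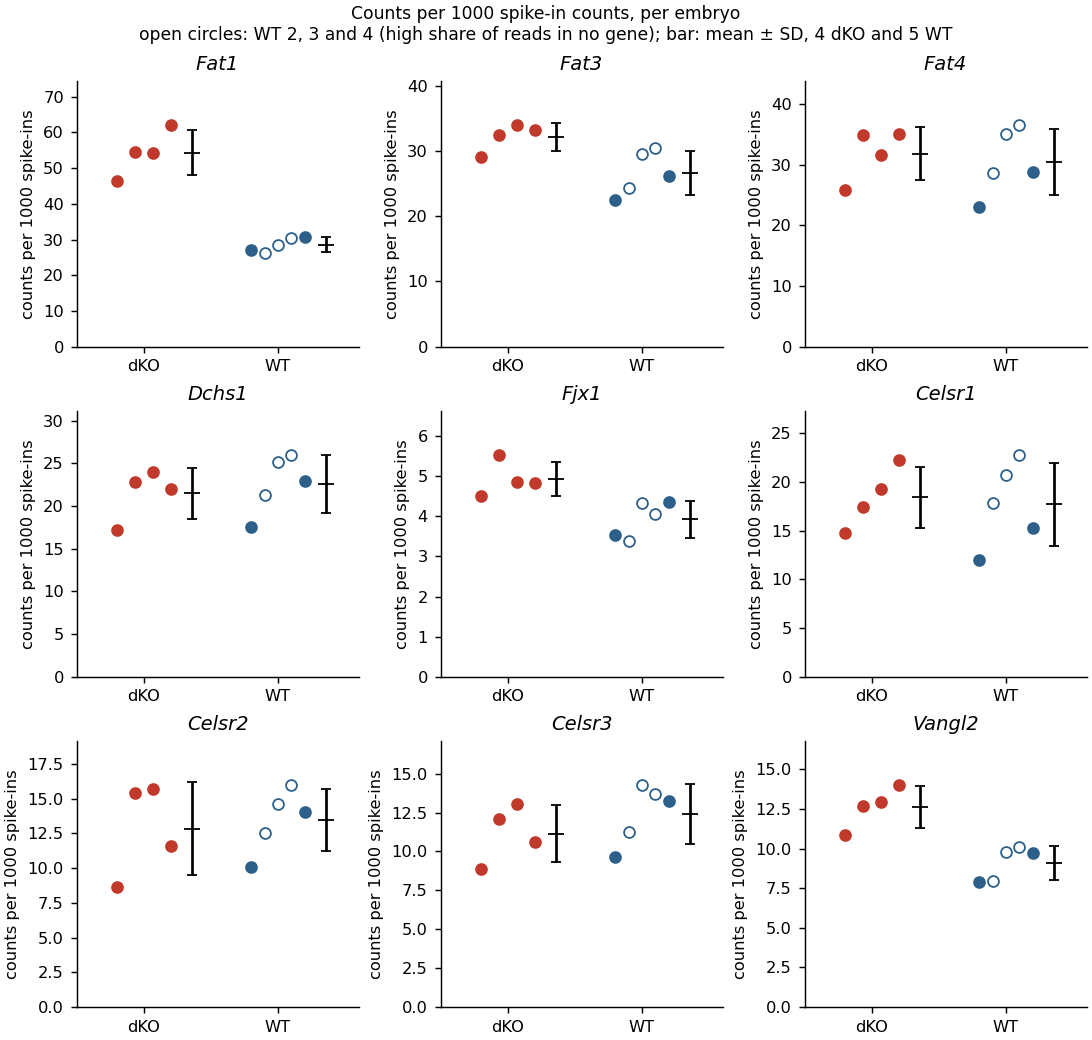
Counts per 1000 spike-in counts (y axis) of the 9 genes in each library, with dKO on the left and WT on the right; open circles mark WT 2, 3 and 4, and bars give mean ± SD (n = 4 and 5). Fat1, Fjx1 and Vangl2 are higher in all dKO libraries than in all WT libraries, and the groups overlap for the other 6 genes.

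The Celsr genes are mammalian homologs of fly Flamingo. Celsr1, best known from neural progenitors and neural tube closure, had 212, 207, 245 and 269.7 CPM in dKO, against 222, 358, 325, 373 and 246 CPM in WT. WT 2, 3 and 4 stood well above the dKO libraries, whereas WT 1 and WT 5 fell within their range. The relative log2 fold change was -0.39 (SE 0.15, adjusted p = 0.0761) and did not pass; it was -0.01 against WT 1 and WT 5. Celsr1 passed as a fall without WT 1 (-0.48, adjusted p = 0.0166) or WT 5 (-0.46, adjusted p = 0.0419). Per 1000 spike-in counts it had 14.8, 17.5, 19.2 and 22.2 counts in dKO, against 12.0, 17.8, 20.7, 22.8 and 15.3 counts in WT. The log2 fold change was 0.05 per spike-in count (adjusted p = 0.737) with all libraries. It was 0.43 against WT 1 and WT 5, a rise (adjusted p = 0.0146) in a comparison where 49.1% of all genes rose.

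Celsr2, which with Celsr3 is required for ependymal cilia in mice, had 124, 183, 199 and 141 CPM in dKO, against 186, 252, 229, 262 and 225 CPM in WT. The dKO libraries were widely spread, and dKO 3 lay above WT 1. The relative log2 fold change was -0.51 (SE 0.14, adjusted p = 0.0178). It did not pass without dKO 4 (-0.46, adjusted p = 0.0505) or without WT 2, 3 and 4 (-0.35, adjusted p = 0.322). Counted against 1000 spike-in counts, Celsr2 had 8.66, 15.4, 15.7 and 11.6 counts in dKO, against 10.1, 12.6, 14.6, 15.96 and 14.0 counts in WT, so that dKO 1 was the lowest library and WT 4 the highest. The log2 fold change there was -0.07 (SE 0.14, adjusted p = 0.679).

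Celsr3, the family member of postmitotic neurons that guides axon tracts, had the lowest relative fold change of the 9 genes. It had 127, 143, 166 and 128 CPM in dKO, against 178, 226, 224, 224 and 213 CPM in WT. All dKO libraries lay below all WT libraries, and the relative log2 fold change was -0.59 (SE 0.09, adjusted p = 0.000918), a level of 0.662 times WT. Per 1000 spike-in counts it had 8.86, 12.1, 13.1 and 10.6 counts in dKO, against 9.66, 11.2, 14.2, 13.7 and 13.3 counts in WT, where the groups overlapped. The log2 fold change of -0.16 on that scale (95% interval -0.40 to 0.08, adjusted p = 0.251) did not pass. Against WT 1 and WT 5 the relative value was -0.47 (SE 0.11, adjusted p = 0.0623).

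Vangl2, a membrane protein of the planar polarity core whose mutation leaves the neural tube open, followed the typical gene. It had 155, 150.4, 165 and 169.7 CPM in dKO, against 146, 159.9, 153, 166 and 156 CPM in WT. The groups overlapped, and the relative log2 fold change of 0.03 (95% interval -0.07 to 0.14, adjusted p = 0.643) did not pass. Per 1000 spike-in counts it had 10.8, 12.7, 12.9 and 14.0 counts in dKO, against 7.90, 7.95, 9.76, 10.1 and 9.72 counts in WT. All dKO libraries were above all WT libraries, with a log2 fold change of 0.47 (SE 0.11, adjusted p = 0.000413), close to the 0.43 of the median gene.

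**Figure D3:**
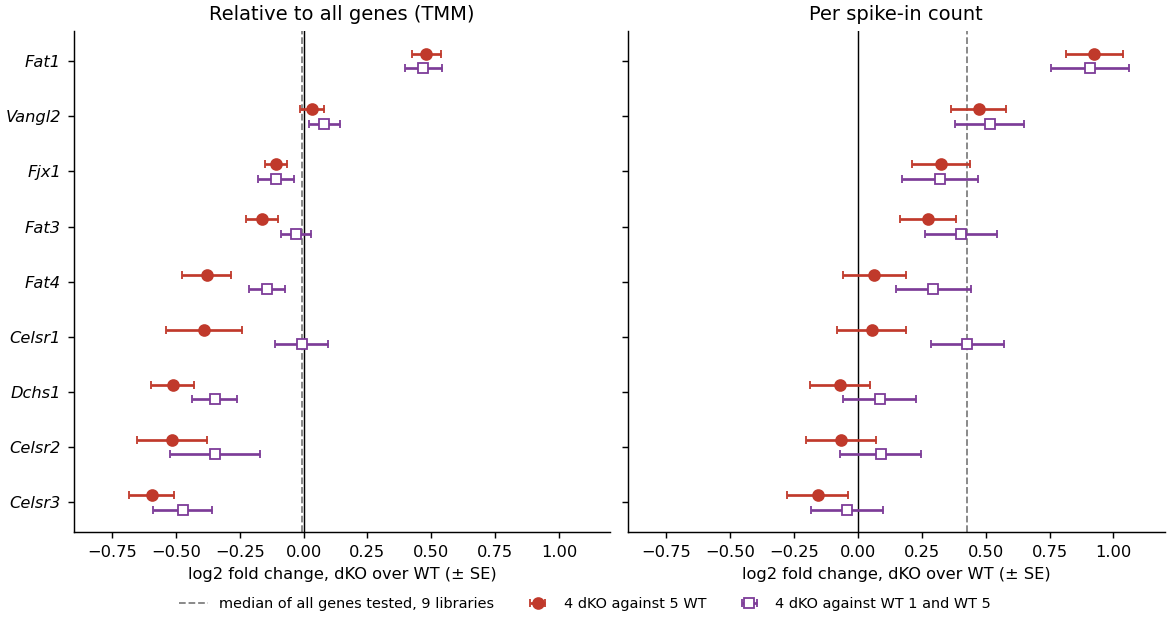
Log2 fold change of dKO over WT (x axis, ± SE) for each gene (y axis), relative to all genes on the left and per spike-in count on the right. Circles use 4 dKO and 5 WT libraries, squares the 4 dKO libraries against WT 1 and WT 5, and the dashed line is the median of all genes tested (-0.01 and 0.43); Fat1 lies to the right of that line on both scales, and Celsr1 and Fat4 move most when WT 2, 3 and 4 are left out.

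A ratio of 2 genes within a library depends on no scaling, and 9 such ratios were compared by exact permutation. Fat1 gained on both of its relatives. There were 1.80, 1.56, 1.72 and 1.77 Fat1 counts per Fat4 count in dKO, against 1.17, 0.918, 0.808, 0.832 and 1.07 in WT, without overlap. This is a log2 difference of 0.85 (SE 0.11), or 1.80-fold (exact permutation p = 0.00794, two-sided, 0.0357 adjusted over the 9 ratios). Fat1 counts per Fat3 count were 1.60, 1.68, 1.60 and 1.87 in dKO, against 1.20, 1.08, 0.962, 0.999 and 1.18 in WT, a log2 difference of 0.64 (SE 0.08) with the same p-values. Against WT 1 and WT 5 both groups still did not overlap, with log2 differences of 0.61 and 0.50, where 15 assignments allow no p under 0.0667. The ratio of receptor to ligand did not pass: Fat4 counts per Dchs1 count were 1.50, 1.53, 1.31 and 1.59 in dKO, against 1.31, 1.35, 1.40, 1.41 and 1.25 in WT (a log2 difference of 0.14, SE 0.07, exact permutation p = 0.0794, 0.119 adjusted).

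The remaining 6 ratios did not pass either. Fat3 over Fat4 gave a log2 difference of 0.21 (SE 0.08, exact permutation p = 0.0476, 0.119 adjusted), Fjx1 over Fat4 0.26 (SE 0.12) and Vangl2 over Celsr1 0.40 (SE 0.14). Within the Celsr family the log2 differences were 0.17 (SE 0.20) for Celsr1 over Celsr2, 0.23 (SE 0.16) for Celsr1 over Celsr3 and 0.07 (SE 0.09) for Celsr2 over Celsr3. Against WT 1 and WT 5 alone, Fjx1 over Fat4 was 0.03, Vangl2 over Celsr1 0.09 and Fat3 over Fat4 0.11, all smaller than with 5 WT libraries. Celsr1 over Celsr3 was 0.46 there and its groups no longer overlapped, and Celsr1 over Celsr2 was 0.35. The dKO embryos differed among themselves: Celsr1 counts per Celsr2 count were 1.71 and 1.92 in dKO 1 and dKO 4, and 1.13 and 1.23 in dKO 2 and dKO 3. The WT libraries spanned 1.09 to 1.43, a range that holds dKO 2 and dKO 3 and lies below dKO 1 and dKO 4.

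**Figure D4:**
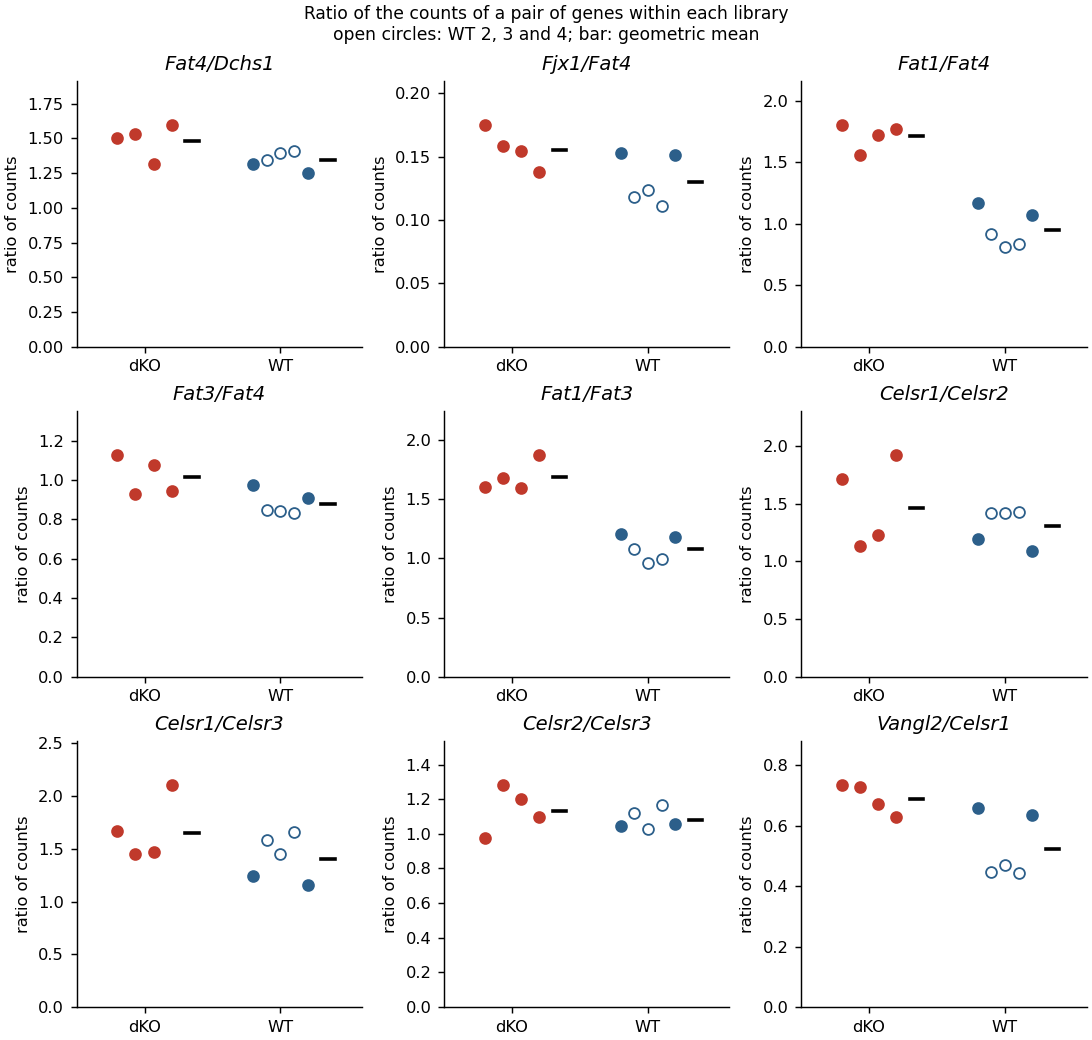
Ratio of the counts of 2 genes within each library (y axis), with dKO on the left and WT on the right of each panel; open circles mark WT 2, 3 and 4 and short bars the geometric mean. Fat1 over Fat4 and Fat1 over Fat3 separate the groups, at 1.56 to 1.80 and 1.60 to 1.87 in dKO, and the other 7 ratios overlap.

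Levels of different genes were compared as CPM per kb of merged exon length, for which GENCODE vM21 (GRCm38) was used. In dKO, Fat1 stood alone at the top with 44.0 ± 2.97 CPM per kb (SD, n = 4), its lowest library at 41.3, and Dchs1 at 24.6 ± 2.26, Fat4 at 23.4 ± 1.44, Vangl2, Celsr1, Fjx1, Fat3 and Celsr2 followed, down to Celsr3 at 11.7 ± 1.51. In WT the order was Dchs1, Fat1, Fat4, Celsr1, Vangl2, Fjx1, Fat3, Celsr2 and Celsr3, and these means spanned only 35.1 ± 3.91 to 17.6 ± 1.65 CPM per kb (SD, n = 5). Every gene in the WT order overlapped the next in its values, with a gap between means within 1 SD, and the longest transcript in place of the merged exons moved Vangl2, Fjx1, Fat3 and Celsr2 among the ranks. Merged exons of 7 of the 9 genes exceeded 10 kb, all but Fjx1 and Vangl2. Of the 1332 tested genes of at least 10 kb, 28.2% fell and 12.8% rose on the relative scale, with a median log2 fold change of -0.08; without WT 2, 3 and 4, 2.78% fell and 3.98% rose. The part of transcript length in the relative falls above was not tested.

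Of 15 other genes listed for the Fat and Dachsous pathway, 13 were tested: 5 rose and 2 fell relative to other genes, where 13.7% and 12.0% of all genes did, so the share that fell is near that of all genes. Per spike-in count 11 of the 13 rose, where 61.1% of all genes did, and the relative median was 0.02. Fat2 was near the limit of detection, at 0.110 ± 0.0897 CPM in dKO and 0.412 ± 0.288 CPM in WT (SD, n = 4 and 5), and was not tested. The rises were in Fbxl7 (12.9 ± 3.09 CPM in dKO and 5.21 ± 0.717 CPM in WT; log2 1.28, SE 0.16), the homolog of a fly F-box protein that binds Fat, and in Mpp5 (0.72, SE 0.08), which encodes the apical polarity scaffold Pals1. Lix1, a homolog of a fly protein that binds the tails of Fat and Dachsous, had 99.9 ± 7.80 CPM in dKO and 66.2 ± 5.53 CPM in WT (0.59, SE 0.07). The Ena/VASP gene Vasp (0.21, SE 0.06) and the scaffold gene Mpdz (0.11, SE 0.04) also rose. Rere, an atrophin, whose fly homolog binds the tail of Fat, fell (-0.42, SE 0.08), as did the Ena/VASP gene Evl (-0.17, SE 0.05). Fbxl7, Mpp5 and Lix1 still rose without WT 2, 3 and 4, with log2 fold changes of 1.29, 0.65 and 0.50, and the other 4 did not pass there.

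Of 33 other planar polarity genes, all tested, 11 rose and 2 fell relative to other genes, where 13.7% and 12.0% of all genes did. Per spike-in count 26 of the 33 rose, where 61.1% of all genes did, and the relative median was 0.06. The glypican gene Gpc4, a co-receptor of Wnt ligands that acts in convergent extension in zebrafish, had 104 to 156 CPM in dKO and 51.6 to 60.5 CPM in WT (log2 1.15, SE 0.10). Daam2, a formin that links Dishevelled to actin, rose by 1.15 (SE 0.12), and Intu, a planar polarity effector needed for cilia, by 1.07 (SE 0.12) on the log2 scale. The Wnt receptor gene Ryk rose by 0.20 (SE 0.04). The falls were in Prickle2 (-0.42, SE 0.07), a cytoplasmic partner of Vangl proteins, and Ankrd6 (-0.46, SE 0.11), the homolog of fly Diego. Genes of this list with a relative value near 0 that did not pass included Vangl1 (-0.01, SE 0.17), Scrib (-0.03, SE 0.07), Dvl1 (0.01, SE 0.04) and Ptk7 (-0.07, SE 0.05). Without WT 2, 3 and 4, Gpc4, Daam2, Intu and the ligand gene Wnt5a (0.51, adjusted p = 0.0297) still rose. Ryk did not pass there (0.19, edgeR adjusted p = 0.106). Neither did the falls of Prickle2 (-0.34, adjusted p = 0.0881) and Ankrd6 (-0.18, adjusted p = 0.244), so that 0 of the 33 fell, where 0.949% of all genes did.

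**Figure D5:**
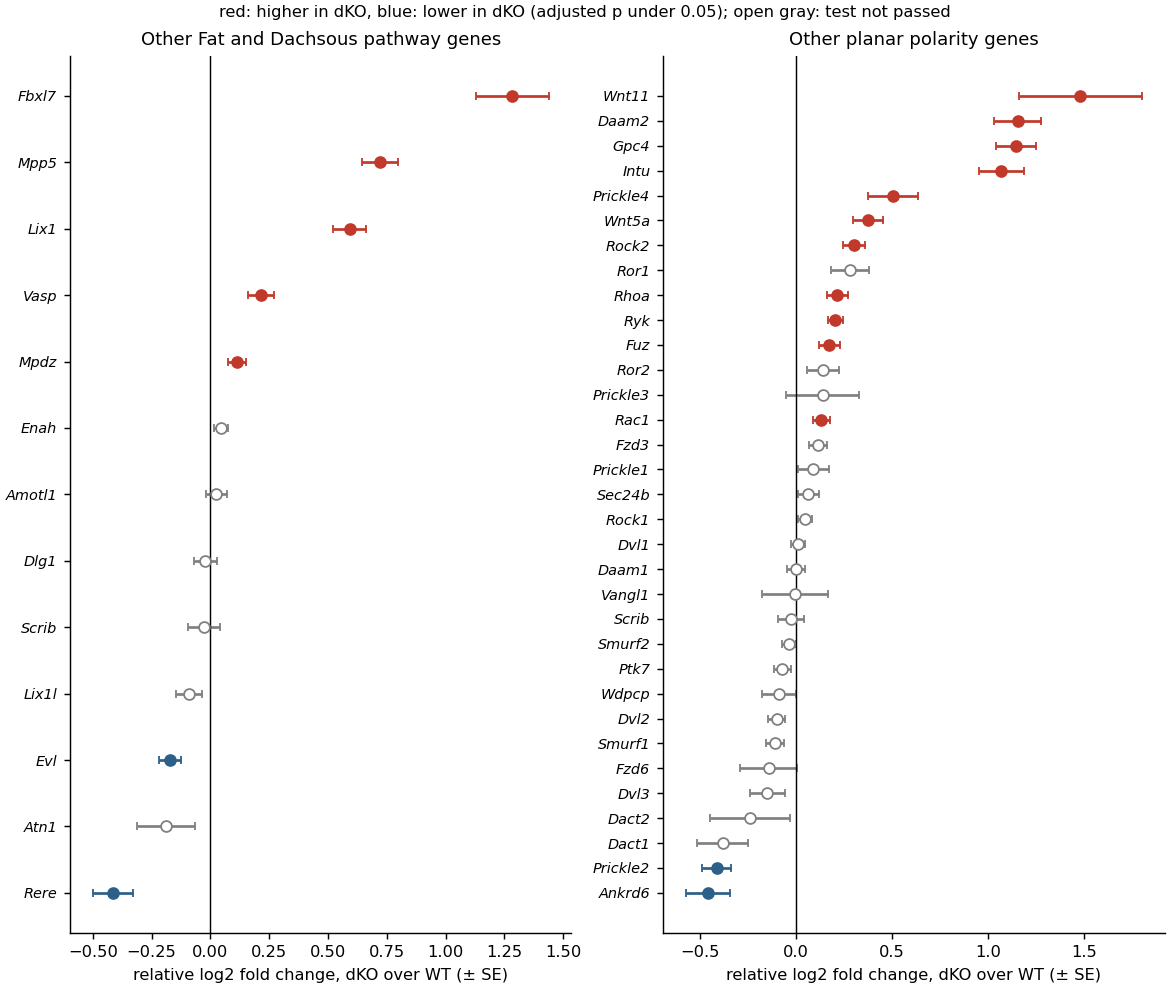
Relative log2 fold change of dKO over WT (x axis, ± SE, 4 dKO and 5 WT libraries) of the other Fat and Dachsous pathway genes on the left and the other planar polarity genes on the right (y axis); red and blue mark genes that passed as higher and lower in dKO, open gray those that did not pass. Fbxl7 at 1.28 and Wnt11 at 1.48 are the topmost points of the 2 panels. Wnt11 was near the limit of detection, at 0.524 ± 0.158 CPM in dKO and 0.187 ± 0.0520 CPM in WT (SD). It did not pass without WT 2, 3 and 4 (edgeR adjusted p = 0.0927).

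The genes whose profile over the 9 libraries lay nearest to each member were found by the root-mean-square difference of centred log2 CPM among 12518 genes. For Fat1 these were Arhgef17 (0.042) and Gbe1 (0.046), for Fat3 Ppp1r12b (0.031) and Trim13 (0.032), and for Fat4 Ephb6 (0.051) and Igdcc4 (0.052). Aplp1 (0.040) and Lrp1 (0.057) lay nearest to Dchs1, and Mtf2 (0.021) and Sort1 (0.028) nearest to Fjx1. The nearest to Celsr1 were Slc7a4 (0.077) and Dock3 (0.091), and the nearest to Celsr2 were Setd1b (0.029) and Zmiz1 (0.097). Chn2 (0.058) was near Celsr3, and for Vangl2 they were Polr3a (0.026) and Bcar1 (0.031). Aplp1 is known from neurons. All 9 libraries enter each distance, so a shared group difference and a shared deviation of WT 2, 3 and 4 both shorten it.

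Markers of several neural cell classes differed with genotype on the relative scale, on which 13.7% of all genes rose and 12.0% fell. Of 13 tested markers of postmitotic neurons 7 fell, with a summed level of 2383 to 2643 CPM in dKO and 2776 to 3429 CPM in WT. Of 9 markers of intermediate progenitors 7 fell (691 to 759.6 CPM in dKO and 860.4 to 969 CPM in WT), and of 12 markers of the ventral GABAergic lineage 10 fell (265 to 421 CPM in dKO and 580.3 to 666 CPM in WT). Of 13 radial glia markers 5 rose and 2 fell (4236 to 4708 CPM in dKO and 2751 to 3169 CPM in WT). The most abundant in that sum were Vim (1689 ± 259 CPM in dKO and 709 ± 87.9 in WT, SD) and Nes (1178 ± 73.6 and 784 ± 58.5), which both rose. Hes5 and Fabp7 fell, and Sox2, Pax6, Slc1a3, Prom1, Notch1 and Sox9 did not pass. Of 6 Cajal-Retzius markers 1 fell (366 to 442 CPM in dKO and 447 to 564 CPM in WT). The last share is near that of all genes. With WT 1 and WT 5 alone, 1 neuron, 2 intermediate progenitor, 5 ventral and 0 Cajal-Retzius markers fell and 5 radial glia markers rose (edgeR; 1 Cajal-Retzius marker was lower at an unadjusted p under 0.05), beside 0.949% and 2.51% of all genes. Per spike-in count with all libraries, 0 neuron, 0 intermediate progenitor, 5 ventral and 1 radial glia markers fell, where 0.698% of all genes did (edgeR). For neurons and intermediate progenitors it was also 0 at an unadjusted p under 0.05, and a count of 0 is near the share over all genes. On that scale 4 neuron, 1 intermediate progenitor, 0 ventral and 10 radial glia markers rose, where 61.1% of all genes did. The part of these classes in the relative falls of Celsr3, Celsr2, Dchs1 and Fat4 was not tested. Summed levels of endothelial (260.0 to 340.2 CPM in dKO and 266 to 343 CPM in WT) and pericyte and meningeal markers (868 to 1194 in dKO and 944 to 1167 in WT) overlapped between dKO and WT. Those of choroid plexus and hem (217 to 306 in dKO and 178 to 482 in WT) and of surface ectoderm and neural crest markers (20.97 to 40.1 in dKO and 20.2 to 39.3 in WT) overlapped as well. Erythroid markers overlapped too (1962 to 3571 CPM in dKO and 2463 to 6635 CPM in WT), and markers of microglia and macrophages summed to 102 to 148 CPM in dKO and 82.7 to 100.3 CPM in WT. Opposite changes can cancel in such sums. Of 8 surface ectoderm and neural crest markers tested, Krt19 (mean 3.08 CPM in dKO and 0.186 in WT) and Grhl3 (2.85 and 1.19) rose relative to other genes. Dct fell (5.89 and 13.2). Of 10 endothelial markers 1 rose, as did 1 of 9 for microglia and macrophages, and 1 of 8 erythroid markers fell. No pericyte, meningeal, choroid plexus or hem marker passed. Against WT 1 and WT 5, Krt19 still rose and 2 erythroid markers fell. None of the markers counted was at 0 in all libraries.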

How the data were processed

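Each library has its own deposited table of raw counts, in whole reads for each gene symbol, which the authors had not normalized. The submitters' processing notes name STAR, HTSeq and mm9, while the versions, the annotation and the strand setting were not stated in the material at hand. Rows for reads outside genes (no gene, several places, not aligned, ambiguous) did not enter library sizes or tests; reads in no gene made up 32.0% to 41.3% of a library. Of the antisense genes annotated over Fat1, Fat4 and Dchs1, Gm2366, C230034O21Rik and Gm15645 had at most 29 counts in a library; Gm43539, also over Fat4, was not analysed here.

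Counts were analysed in R 4.3.3 with edgeR 4.0.16 (filterByExpr, quasi-likelihood test, Benjamini-Hochberg over all 17182 genes). The relative fit used TMM; the spike-in fit set library size to the total of 92 ERCC counts, whose 9 totals are shared by all its p-values. SEs are the fold change over the root of F, and 95% intervals use the moderated degrees of freedom. Members had 851 to 29942 counts per library. Counting error was not compared with the spread between embryos. For Fjx1, which held the smallest count, the WT spread was narrow (67.4 ± 1.76 CPM, SD, n = 5), so counting error may be a large part of it. Libraries were taken as separate embryos, per the labels' protocols. The fits were also run on simulated counts, as a check on the mean error of the log2 fold changes. No limit was set there on false calls. The simulated spike-in totals had no spread between tubes beyond counting error, so the p-values per spike-in count were not checked by it. Alternatives were DESeq2 1.42.0, limma-voom 3.58.1, other filters and scalings, each library left out, WT 2, 3 and 4 left out, and a replicate block. Members, gene lists and marker lists were chosen with earlier results of these data known. Named from the 2 pathway lists were the 5 genes with the smallest adjusted p in the relative fit and, chosen after their values were seen, Evl, Mpdz, Ankrd6, Wnt5a, Wnt11, Vangl1, Scrib, Dvl1 and Ptk7; the 2 nearest genes per member were named by distance among genes with a mean of at least 1 CPM, after removal of small RNAs, predicted genes and genes tied to sex; 1 of these genes is not reported here. Dchs2 and the neuronal marker Map2 were not analysed here.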

Additional observations from a re-analysis of the deposited data

Results flagged for a closer look

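In 64 groups of 4 or 5 libraries examined, a single library stood far from the others in 2, where chance alone gives about 5% of groups. WT 1 had the lowest Celsr3 level of the WT libraries, at 178 CPM against 213 to 226 CPM in the other 4; it is also the WT library with the fewest gene counts. dKO 4 had the highest Lats2 value per 1000 spike-in counts of the dKO libraries, at 4.65 against 2.86 to 3.12 in the other 3.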

How the results depend on the processing

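The rise of Fat1 passed under every alternative run, on both scales (log2 0.44 to 0.51 relative, 0.86 to 0.99 per spike-in count), as did that of Vangl2 per spike-in count. Against WT 1 and WT 5 alone, the relative fit called 432 genes higher and 163 lower in dKO, with 0 of the 4 members that fell, the spike-in fit called 43 genes lower, and gene counts per spike-in count differed by 0.45 (exact permutation p = 0.0667, the smallest possible); with 6 libraries power is lower too. In that comparison the spike-in values of Dchs1 and Celsr2 turned to 0.085 and 0.090. Genes lower per spike-in count numbered 79 by DESeq2 and 187 without a filter. Leaving out each library gave 67 to 203 of these, with 203 without WT 1, 67 without WT 3 and 193 without dKO 4, and 1369 to 2275 relative falls, with 1369 without WT 4. Members that rose per spike-in count numbered 2 to 4, with 2 without dKO 2, and members that fell relative to other genes 3 to 6, with 3 without dKO 4 and 6 without WT 1 or WT 5. Values per spike-in count that changed sign were those that had not passed: Fat4 ranged from -0.020 to 0.15, Celsr1 from -0.056 to 0.16, Celsr2 from -0.18 to 0.083 and Dchs1 from -0.15 to 0.023 over single-library omissions. The Fat1/Fat4 and Fat1/Fat3 ratios kept their direction at 0.79 to 0.92 and 0.59 to 0.68, but no adjusted p passed (0.0536 to 0.129), and neither did 0.61 and 0.50 against WT 1 and WT 5 (adjusted p = 0.3), where fewer libraries raise the smallest p. With 1 library left out, the smallest unadjusted permutation p is 0.0286 without a WT library and 0.0179 without a dKO library. The replicate numbers do not pair the embryos: deviations from group means correlated at -0.13, -0.14, -0.21 and 0.10 for numbers 1 to 4, and the sources name no shared litter. With the replicate block, 5 members fell relative to other genes (Celsr1 added, -0.44) and 3 rose per spike-in count (Fat3 lost, 0.28). WT 5 is alone in its block, so it does not enter the dKO difference there. The ratios were then compared by a sign-flip test over 4 pairs of equal number and were 0.89 and 0.67 (adjusted p = 0.225). That test allows no p under 0.125, so no ratio could pass. The cause of the other changes was not tested.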
